A study of Mus musculus with 8 samples.

Results

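Levels are given here for 10 genes of the Kruppel-like factor (KLF) family, Klf2, Klf3, Klf4, Klf5, Klf6, Klf7, Klf9, Klf10, Klf13 and Klf15, out of 19752 genes with a named probe on the array. The genes were taken from a fixed list of symbols, matched through the transcript accession of each probe. All 10 had 1 probe each, and all 10 probes were well above background on all 8 arrays, so none was lost to the filter on dim signal. The list was drawn up with earlier results of these arrays known, so a count or direction over it is a description, and the fitted p-values below only place a gene among all 13789 genes tested.

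The cells were mouse neural stem and progenitor cells (NSPCs) grown as floating neurospheres from embryonic stem cells. Cells that overexpress the transcription factor NFIA, which takes part in the start of astrocyte formation, were cultured together with control cells and then separated from them by fluorescence-based sorting. RNA was hybridised to 1-colour Agilent arrays in 4 groups of 2 arrays each. SN_NFIA and SN_control are the NFIA-overexpressing and the control cells of secondary neurospheres (passage 1, day 12), and PN_NFIA and PN_control are the same cell types of primary neurospheres (passage 0, day 6). The vector and promoter that drive NFIA, and whether each line is 1 clone, are not given in the sources used here, and nothing says that the arrays of a group came from separate cultures. P-values therefore measure only the spread between these arrays.

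The sample labels and the deposited files disagree in 2 respects. Each column of the value table of the authors was set against the scanner files, and levels were taken from the file that correlated best with it. The best correlation was at least 0.99988 for every column, against at most 0.3384 with any other file, and for 7 of 8 columns the best file sat with another sample. The source names add a second conflict, because all 4 control samples are given there as the NFIA line while 2 NFIA samples (PN_NFIA 1 and SN_NFIA 2) are given there as WT. The titles set the groups used here. All 8 arrays lay on 1 slide, with each passage in its own row and each cell type in its own columns, and these effects cannot be told apart from place on the slide.

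The 2 probes of Nfia, the overexpressed gene, serve as a check of the labels. On the brighter probe the level was 1.70 and 1.63 in SN_NFIA and 1.01 and 0.63 in SN_control, and -0.23 and 0.94 in PN_NFIA against -1.30 and -0.29 in PN_control. Nfia was thus higher in NFIA cells within each passage, but its difference over both passages did not pass the test (1.00 ± 0.32 in log2, SE, 4 arrays against 4, adjusted p = 0.171). The dimmer probe differed by 1.95 between the mean of NFIA cells (-0.98) and that of control cells (-2.93). Whether either probe lies in the overexpressed transcript is not given in the sources used here. All 8 neural progenitor markers, among them Nes, Sox1 and Sox2, were above background on all 8 arrays, with a mean level of 3.47 to 3.90 in NFIA cells and 2.80 to 4.08 in control cells. Of the blood and microglia list, Aif1, Ptprc, Spi1 and Tyrobp were above background on no array, and Hbb-bh1 on 2 NFIA and 1 control arrays. Csf1r, also on that list, was above background on all 8 arrays, with a mean level of 0.72 in NFIA and 0.47 in control cells.

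KLF proteins bind DNA through zinc fingers at their C-terminal end and recognise GC-rich and CACCC sequences, which they share with the related SP factors. The family falls into a set of mostly activators (among them Klf2, Klf4, Klf5, Klf6 and Klf7), a set that recruits the corepressor CtBP (Klf3, Klf8 and Klf12) and a set that recruits the corepressor Sin3A (among them Klf9, Klf10 and Klf13). In embryonic stem cells Klf2, Klf4 and Klf5 help to hold the undifferentiated state, and in neurons Klf4 and Klf9 restrain axon growth while Klf6 and Klf7 favour it. Several of the genes are themselves switched by signals: Klf9 by thyroid hormone and glucocorticoids, Klf15 by glucocorticoids and Klf10 by TGF-beta.

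Since the members differed in how far NFIA and control cells stood apart, the 250 bases before an annotated transcription start are shown for the 4 with the largest difference over both passages, Klf15, Klf4, Klf2 and Klf9. The window of Klf15 lies inside the gene, whose annotated span begins at chr6:90461043. They are given 5′ to 3′ on the strand of the gene, from RefSeq with build GRCm38.p6. Capitals mark CACCC (also as GGGTG) and GGGCGG (also as CCGCCC), the letters of the boxes that KLF and SP proteins recognise, and overlapping matches were each counted. The 4 windows lie at chr6:90462326-90462575 on the plus strand (Klf15), chr4:55532476-55532725 on the minus strand (Klf4), chr8:72318812-72319061 on the plus strand (Klf2) and chr19:23140976-23141225 on the plus strand (Klf9).
Klf15: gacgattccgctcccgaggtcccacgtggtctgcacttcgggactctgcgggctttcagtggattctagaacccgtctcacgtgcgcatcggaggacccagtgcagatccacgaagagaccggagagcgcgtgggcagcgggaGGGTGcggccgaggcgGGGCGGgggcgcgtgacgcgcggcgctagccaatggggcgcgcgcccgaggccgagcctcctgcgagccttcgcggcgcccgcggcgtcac
Klf4: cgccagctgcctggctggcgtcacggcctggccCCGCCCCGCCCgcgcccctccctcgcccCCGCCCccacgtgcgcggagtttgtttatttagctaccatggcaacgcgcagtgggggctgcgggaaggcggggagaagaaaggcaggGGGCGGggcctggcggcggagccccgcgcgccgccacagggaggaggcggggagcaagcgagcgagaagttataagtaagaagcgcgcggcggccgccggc
Klf2: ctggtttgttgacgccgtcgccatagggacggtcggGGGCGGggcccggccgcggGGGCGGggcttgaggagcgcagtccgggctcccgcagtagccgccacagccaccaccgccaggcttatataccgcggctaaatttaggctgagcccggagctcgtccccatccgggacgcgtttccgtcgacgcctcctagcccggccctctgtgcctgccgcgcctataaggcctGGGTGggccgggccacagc
Klf9: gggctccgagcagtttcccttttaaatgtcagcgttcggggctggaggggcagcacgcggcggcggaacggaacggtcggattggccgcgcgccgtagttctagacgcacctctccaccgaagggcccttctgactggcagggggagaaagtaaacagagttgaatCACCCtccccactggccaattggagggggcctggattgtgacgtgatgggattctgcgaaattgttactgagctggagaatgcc
CACCC stood once each in the windows of Klf15, Klf2 and Klf9 and not in that of Klf4, while GGGCGG stood 4 times in that of Klf4, 2 times in that of Klf2, 1 time in that of Klf15 and not in that of Klf9.

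Among the members, 8 of 10 had a promoter in the RefSeq table, and Klf5 and Klf10 did not. The windows of Klf7 and Klf15 lay inside the annotated span of the gene and not before it. CACCC was found in 6 of these 8 windows, against 52% of all 32851 promoters of the same length. GGGCGG was found in 7 of 8, against 32.7% of all. The windows of the members were rich in G and C, at 59.2% to 78.4% against a median of 52.4% over all promoters, and the shares holding a motif were not adjusted for this. The palindrome to which NFI proteins bind, TTGGC and GCCAA with 5 free bases between them, stood in none of the 8 windows and in 0.0365% of all promoters. Its arm TTGGC, searched on both strands, stood in 4 of 8 (Klf6, Klf9, Klf13 and Klf15) and in 41.5% of all. A match is a description of these letters and not of binding, and the list was not chosen by sequence.

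**Figure D1:**
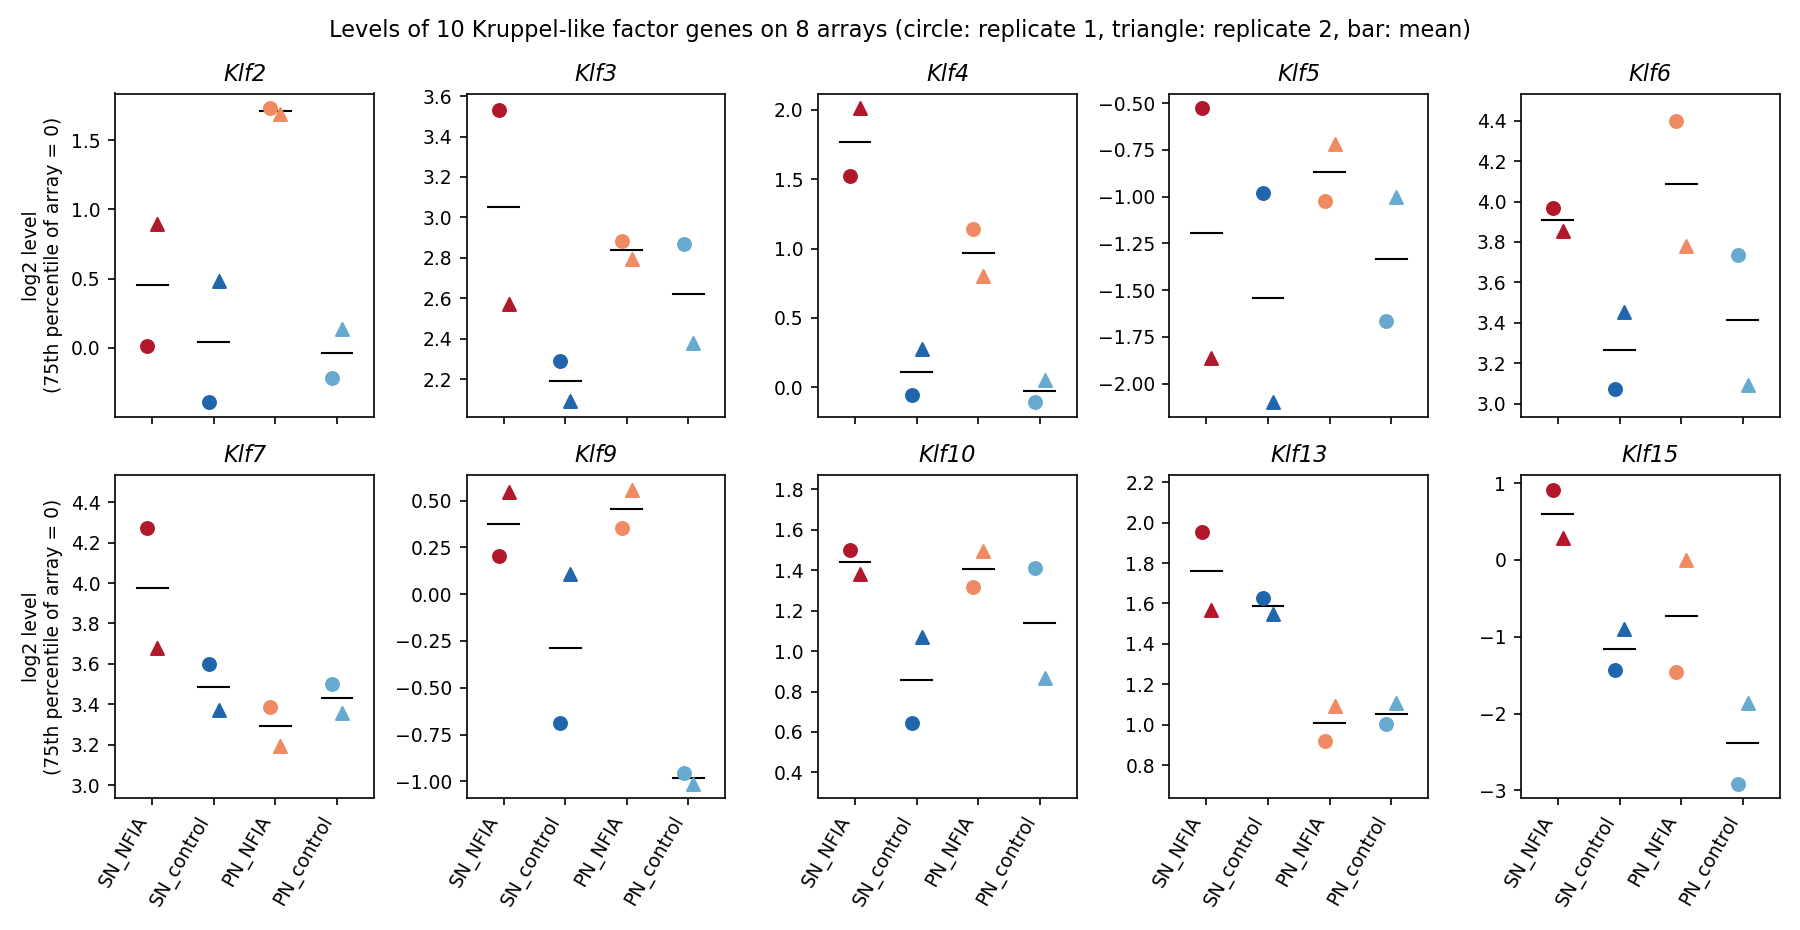
Level of each of the 10 KLF genes on the 8 arrays, in log2 units with the 75th percentile of the array set to 0 (y axis, a separate range for each gene) by group (x axis), where circles are replicate 1, triangles replicate 2 and bars the mean of a group. Klf4 sits higher in NFIA than in control cells of both passages without overlap, while the 4 groups of Klf5 overlap throughout.

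Levels are on the log2 scale, with the 75th percentile of the signal of the array at 0, so a level of 1 is a signal 2-fold above that percentile. The level of a probe cannot be set against that of another probe, so each gene is compared only with itself. A difference is a log2 difference ± its standard error from limma, and its adjusted p (Benjamini-Hochberg) is over all 13789 genes. NFIA minus control over both passages and passage over both cell types each rest on 4 arrays against 4. Comparisons within 1 passage or 1 cell type rest on 2 against 2. The secondary minus the primary NFIA difference rests on all 8 arrays, and all main fits take their spread from all 8.

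Over both passages Klf4 was the only member past the test in NFIA against control cells, which is 1 of 10 members, beside 1.75% of all genes higher (241) and 0.189% lower (26). Klf4, an activator that is also a reprogramming factor and holds back axon growth, had levels of 1.52 and 2.01 in SN_NFIA and -0.06 and 0.28 in SN_control. In primary neurospheres it had 1.14 and 0.80 in PN_NFIA and -0.11 and 0.05 in PN_control. Every NFIA array thus lay above every control array, by at least the gap between 0.80 and 0.28. The difference was 1.33 ± 0.22 (2.51-fold, adjusted p = 0.031). It was 1.65 ± 0.28 in secondary (adjusted p = 0.0541) and 1.00 ± 0.28 in primary neurospheres (adjusted p = 0.286), neither past the threshold of 0.05. With the replicate number as a block the secondary difference passed (adjusted p = 0.0356), and over the alternatives of that comparison the adjusted p ran between 0.0259 and 0.993. The order of group means was SN_NFIA, PN_NFIA, SN_control and PN_control, with the 2 control groups overlapping and each other neighbour apart.

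The call on Klf4 is close to the threshold. Leaving out any of 7 arrays in turn ended it, with an adjusted p between 0.0585 (without SN_NFIA 2) and 0.0926 (without SN_NFIA 1). The others of these were 0.0625 without PN_NFIA 2, 0.0719 without PN_NFIA 1, 0.0722 without SN_control 1, 0.0834 without PN_control 1 and 0.0636 without PN_control 2. Only without SN_control 2 did it stay past the test (0.0493). The difference itself stayed between 1.16 and 1.46 in these fits. With PN_NFIA 1 and SN_NFIA 2 both left out, the arrays with a WT source name, it was 1.12 ± 0.25 (adjusted p = 0.155). It turned to -0.33 when arrays were taken from the files as attached and to -1.16 when groups followed the source names (adjusted p = 1.00 and 0.964), under which no member and no gene passed over both passages.

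**Figure D2:**
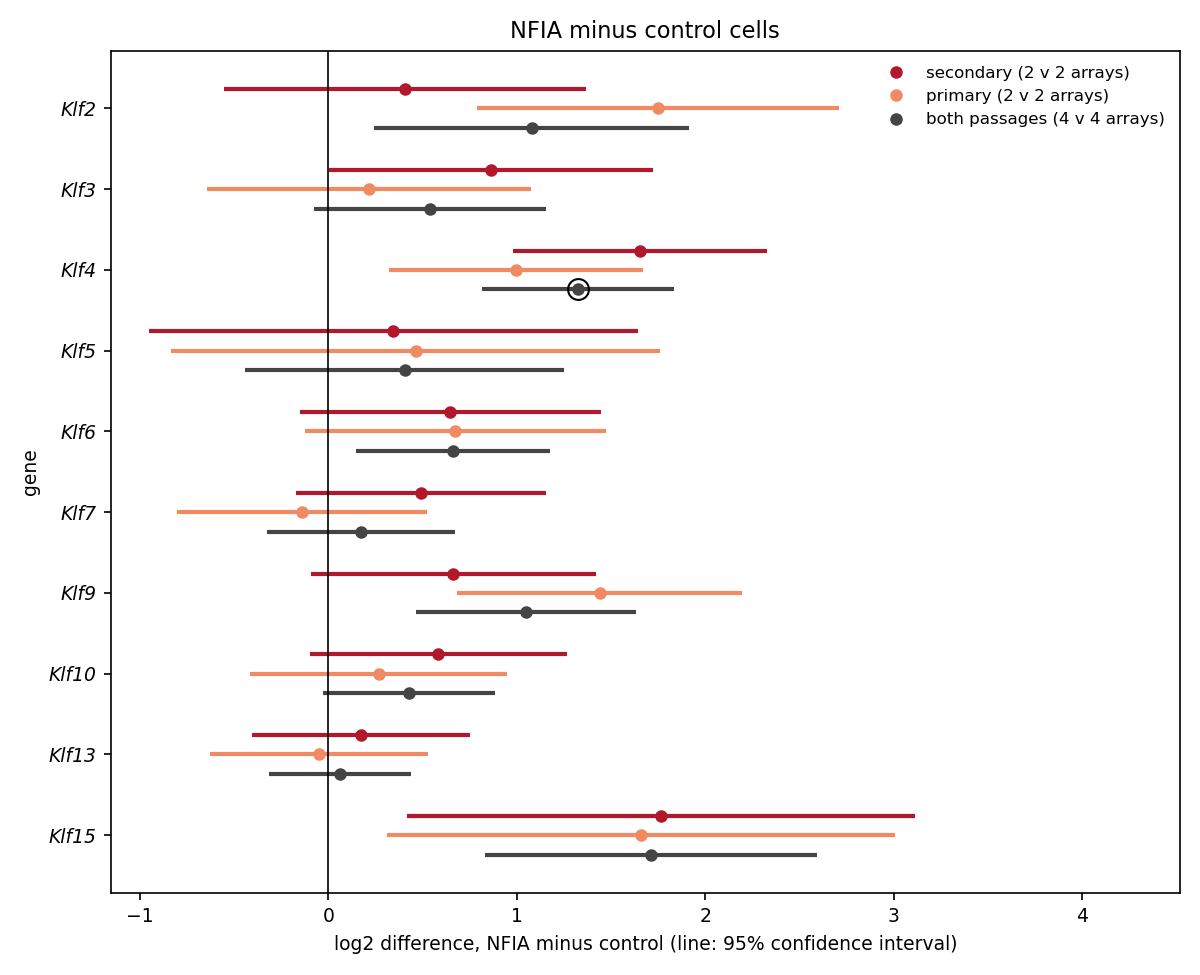
Difference between NFIA and control cells for each KLF gene (y axis) in log2 units (x axis), with points for the fitted difference in secondary neurospheres, in primary neurospheres and over both passages, and lines for the 95% confidence interval. The ring marks Klf4 over both passages at 1.33, the only difference past the test.

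Among the other activators, Klf2 showed the widest step between groups in primary neurospheres. Klf2, known from endothelium and from the undifferentiated state of embryonic stem cells, had 0.01 and 0.89 in SN_NFIA and -0.39 and 0.48 in SN_control, against 1.73 and 1.69 in PN_NFIA and -0.22 and 0.14 in PN_control. The 2 PN_NFIA arrays stood above all others, and the other 3 groups overlapped as neighbours in the order SN_NFIA, SN_control and PN_control. The difference was 1.75 ± 0.41 in primary (adjusted p = 0.175) and 0.41 ± 0.41 in secondary neurospheres (adjusted p = 0.70). With 1 array left out the secondary difference ran between -0.03 (without SN_control 1 or SN_NFIA 2) and 0.85, so its direction is not settled. Tested directly, the secondary difference minus the primary one was -1.34 ± 0.57 (unadjusted p = 0.0522, adjusted p = 0.748). Over both passages it was 1.08 ± 0.36 (adjusted p = 0.186).

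Klf5, which supports growth of epithelial and pluripotent cells, had -0.53 and -1.86 in SN_NFIA and -0.98 and -2.10 in SN_control, and -1.02 and -0.72 in PN_NFIA and -1.67 and -1.002 in PN_control. Its 4 groups overlapped throughout, and replicates of a group lay up to 1.34 apart. Over both passages its difference was 0.40 ± 0.37 (adjusted p = 0.625).

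Klf6, induced by injury in several tissues and a promoter of axon growth, was above the 75th percentile on every array, with 3.97 and 3.85 in SN_NFIA and 3.07 and 3.45 in SN_control. In primary neurospheres its level was 4.40 and 3.78 in PN_NFIA and 3.74 and 3.09 in PN_control. All 4 NFIA arrays lay above all 4 control arrays, though PN_NFIA 2 and PN_control 1 were only narrowly apart. The difference was 0.66 ± 0.22 (1.58-fold, adjusted p = 0.189). It was 0.65 ± 0.34 in secondary and 0.67 ± 0.34 in primary neurospheres (adjusted p = 0.432 and 0.616).

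Klf7, needed in the mouse for the growth of some axons, had 4.27 and 3.68 in SN_NFIA and 3.60 and 3.37 in SN_control, and 3.39 and 3.20 in PN_NFIA and 3.50 and 3.36 in PN_control. Only SN_NFIA stood apart from the next group. Its difference was 0.49 ± 0.28 in secondary and -0.14 ± 0.28 in primary neurospheres (adjusted p = 0.475 and 0.905).

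Klf3, the member that recruits CtBP and a repressor in blood and fat cells, had 3.53 and 2.57 in SN_NFIA and 2.29 and 2.09 in SN_control. In primary neurospheres it had 2.88 and 2.80 in PN_NFIA and 2.87 and 2.38 in PN_control, which overlap. SN_control was apart from the 3 groups above it, and the difference was 0.86 ± 0.36 in secondary (adjusted p = 0.329) and 0.22 ± 0.36 in primary neurospheres (adjusted p = 0.887).

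Of the members that recruit Sin3A, Klf9 differed most between cell types and Klf13 least. Klf9, a target of thyroid hormone and glucocorticoid receptors that acts in the maturation of neurons, had 0.20 and 0.54 in SN_NFIA and -0.69 and 0.11 in SN_control. Its level was 0.36 and 0.56 in PN_NFIA against -0.95 and -1.01 in PN_control. All NFIA arrays lay above all control arrays, and PN_control was apart from the other 3 groups. The difference was 1.05 ± 0.25 over both passages (2.07-fold, adjusted p = 0.0878), 0.66 ± 0.32 in secondary and 1.44 ± 0.32 in primary neurospheres (adjusted p = 0.395 and 0.156). SN_control 2 was the highest of the controls, and without it the difference over both passages was 1.29 and passed the test (adjusted p = 0.024; 0.024 to 1.00 over the alternatives).

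Klf10, an early gene of TGF-beta signalling, had 1.50 and 1.38 in SN_NFIA and 0.64 and 1.07 in SN_control, and 1.32 and 1.50 in PN_NFIA and 1.41 and 0.87 in PN_control. Secondary groups were apart and primary groups overlapped, and the difference over both passages was 0.43 ± 0.20 (adjusted p = 0.316). Klf13, close to Klf9 in sequence, had 1.95 and 1.57 in SN_NFIA and 1.63 and 1.55 in SN_control, and 0.92 and 1.09 in PN_NFIA and 1.01 and 1.11 in PN_control. NFIA and control cells overlapped in both passages, with a difference of 0.06 ± 0.16 and a 95% interval of -0.32 to 0.44.

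Klf15, a glucocorticoid target that acts on amino acid and glucose metabolism, had the largest NFIA difference of the 10 and the widest range over the arrays, 3.83. It had 0.92 and 0.29 in SN_NFIA and -1.43 and -0.90 in SN_control, and -1.46 and 0.00 in PN_NFIA and -2.91 and -1.86 in PN_control. Within each passage the NFIA arrays lay above the controls, but PN_NFIA 1 lay just below both SN_control arrays. The difference was 1.71 ± 0.38 over both passages (3.28-fold), short of the threshold (adjusted p = 0.0722). With the replicate number as a block the same difference passed (adjusted p = 0.0334), and without PN_NFIA 1 it was 2.02 and passed (adjusted p = 0.0471). Over its 17 alternatives the adjusted p ran between 0.0334 and 1.00, and 3 of them passed. It was 1.77 ± 0.57 in secondary and 1.66 ± 0.57 in primary neurospheres, and the secondary minus the primary difference was 0.11 with a 95% interval of -1.80 to 2.01 (unadjusted p = 0.899).

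**Figure D3:**
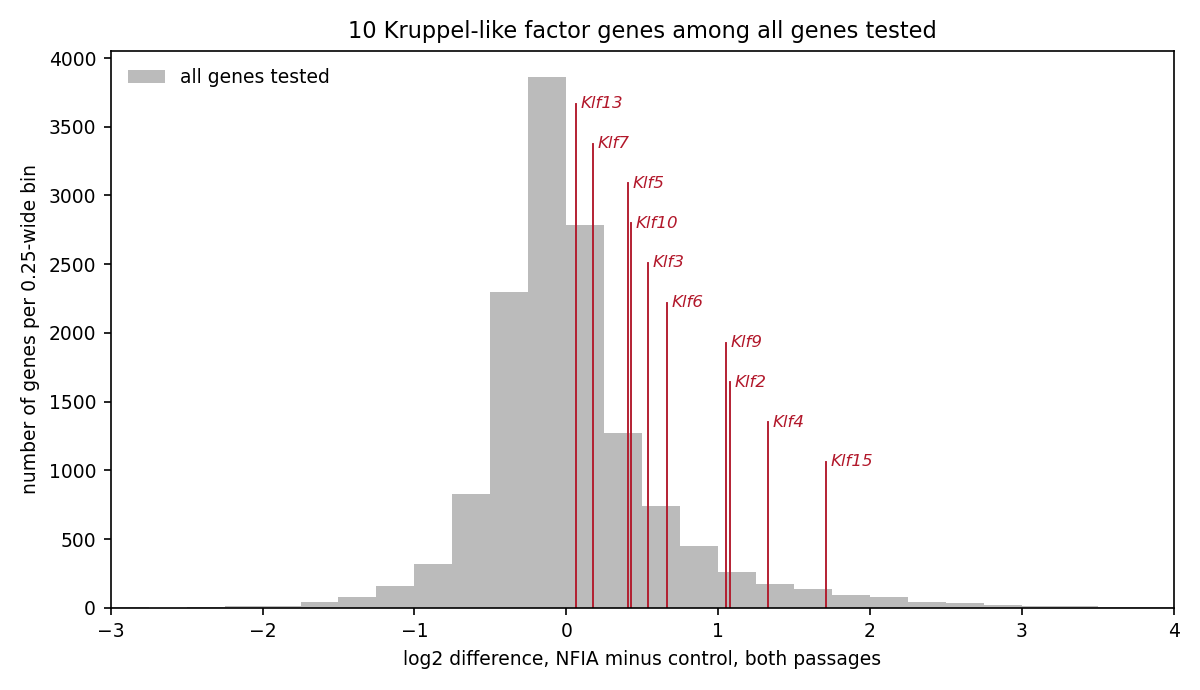
Number of genes (y axis) by NFIA minus control difference over both passages in log2 units (x axis, bins 0.25 wide) for the 13789 genes tested, with a line at the difference of each KLF gene and genes beyond the ends of the axis not drawn. All 10 lines lie above 0, between 0.06 for Klf13 and 1.71 for Klf15, while the median of all genes is -0.05.

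Set beside all genes, the members had a median difference of 0.60 in NFIA against control cells over both passages, where the median of all genes was -0.05. All 10 values were positive, as were 44.6% of those of all genes. An unadjusted p under 0.05 was reached by 5 members (Klf2, Klf4, Klf6, Klf9 and Klf15), beside 17.7% of all genes. Groups did not overlap for 3 members, all higher (Klf4, Klf6 and Klf9), beside 3.65% of all genes higher and 2.28% lower without overlap. In secondary neurospheres 0 members passed the limma test, beside 0.479% of all genes higher and 0.428% lower, 3 had an unadjusted p under 0.05 beside 15% of all genes, and 7 were higher and 0 lower without overlap beside 18.9% and 20%. In primary neurospheres 0 passed, beside 0.312% higher and 0% lower, 4 had an unadjusted p under 0.05 beside 9.56%, and 5 were higher and 0 lower without overlap beside 22.2% and 29.6%. With the replicate number as a block 1 member (Klf4) passed in secondary neurospheres, beside 377 genes higher and 266 lower in place of 66 and 59, and 0 members in primary neurospheres, beside 70 genes higher and 0 lower in place of 43 and 0. Over both passages the block gave 2 members (Klf4 and Klf15), beside 306 genes higher and 46 lower.

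Same-numbered arrays of a passage can also be set against each other. In all 4 such pairs the NFIA array was higher for 7 members, Klf2, Klf3, Klf4, Klf5, Klf6, Klf9 and Klf15, beside 15.1% of all genes, and lower for 0 members, beside 19.9%. Klf4 differed by 1.58 and 1.73 in the secondary pairs and by 1.25 and 0.75 in the primary pairs. Klf15 differed by 2.35 and 1.19 in the secondary pairs and by 1.46 and 1.87 in the primary pairs. Klf5, whose groups overlap, was higher by only 0.24 to 0.64 in the 4 pairs, since both of its arrays of a number were high or low together. Klf10 was higher in 3 pairs, and Klf7 and Klf13 in the 2 secondary pairs alone.

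Whether the NFIA difference itself changed with passage was tested as secondary minus primary. By limma 0 members and 0% of all genes passed in either direction, while an unadjusted p under 0.05 was reached by 0 members and 6.66% of all genes. Klf2 at -1.34 and Klf9 at -0.78 ± 0.45 lay farthest below 0, and Klf4 at 0.66 ± 0.40, Klf3 at 0.65 ± 0.51 and Klf7 at 0.63 ± 0.40 farthest above it.

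Between passages, no member passed the test over both cell types, beside 3.34% of all genes higher and 3.75% lower in secondary neurospheres. With the replicate number as a random block 0 genes passed there in either direction. Klf13 came nearest, with its 4 secondary arrays (1.55 to 1.95) above its 4 primary arrays (0.92 to 1.11). It was the only member without overlap, beside 4.47% of all genes higher and 7.88% lower, and it differed by 0.64 ± 0.16 (1.56-fold, adjusted p = 0.0557). After quantile normalization its difference was 0.70 and passed (adjusted p = 0.0452; 0.0452 to 1.00 over the alternatives). The step was 0.75 ± 0.24 in NFIA cells and 0.53 ± 0.24 in control cells.

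Klf15 was higher in secondary neurospheres by 1.28 ± 0.38 (adjusted p = 0.0817), at 1.33 ± 0.57 in NFIA and 1.22 ± 0.57 in control cells. In Klf2 the passages differed by -1.26 ± 0.41 in NFIA cells (adjusted p = 0.146) and 0.08 ± 0.41 in control cells. Klf4 differed by 0.80 ± 0.28 in NFIA cells and 0.14 ± 0.28 in control cells, and Klf7 by 0.68 ± 0.28 and 0.06 ± 0.28. Over both cell types an unadjusted p under 0.05 was reached by only 2 members, Klf13 and Klf15, beside 26.3% of all genes. Of the 10 differences over both cell types 5 were positive and 5 negative, with a median of 0.10 beside -0.08 for all genes.

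In NFIA cells alone 0 members passed between passages, beside 0.544% of all genes higher and 1.35% lower, and 4 reached an unadjusted p under 0.05 (Klf2, Klf4, Klf7 and Klf13), beside 21.3%. Without overlap there, 4 members were higher (Klf4, Klf7, Klf13 and Klf15), beside 25.8% of all genes, and 1 was lower (Klf2), beside 31.4%. In control cells alone 0 members passed, beside 0.696% higher and 0.109% lower, and 0 reached an unadjusted p under 0.05, beside 13.4%. Without overlap there, 3 members were higher (Klf9, Klf13 and Klf15), beside 16.3%, and 1 was lower (Klf3), beside 26.5%. The comparisons within cell types share arrays with those within passages and are not independent of them.

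**Figure D4:**
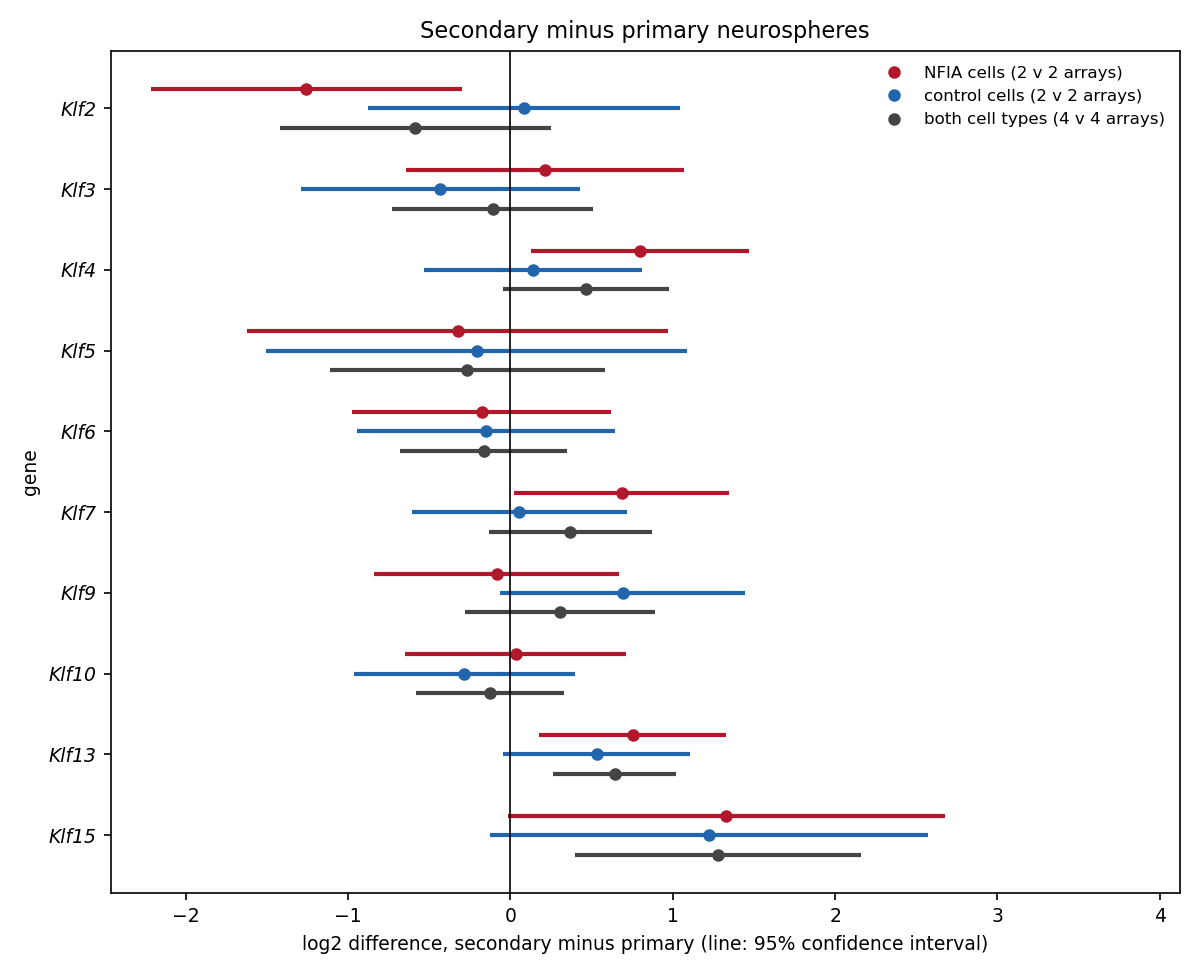
Difference between secondary and primary neurospheres for each KLF gene (y axis) in log2 units (x axis), with points for NFIA cells, control cells and both cell types, and lines for the 95% confidence interval. Klf13 (0.64) and Klf15 (1.28) lie above 0 over both cell types, and Klf2 differs by -1.26 in NFIA cells.

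How the members varied together is given by Pearson's r over the 8 arrays, as a description, since all values share the same arrays and groups. The highest was 0.81 for Klf6 with Klf10, followed by Klf4 with Klf9 (0.81) and Klf4 with Klf15 (0.79). The lowest were -0.45 for Klf2 with Klf7 and -0.45 for Klf2 with Klf13. Of all genes tested, those most like Klf4 over the 8 arrays were Dmrt2 (r = 0.98), Rbp4 (0.97) and Sox7 (0.97). All 3 passed the test between NFIA and control cells over both passages, but they were chosen for following Klf4 on these arrays, which largely fixes that outcome, so their values are a description. Rbp4, a carrier of retinol, had 3.56 and 4.85 in SN_NFIA and -1.54 and 0.35 in SN_control, and 2.98 and 2.70 in PN_NFIA against -0.07 and -0.53 in PN_control. Its difference was 3.97 ± 0.53 (adjusted p = 0.0169), and Dmrt2, above background on all 4 NFIA arrays but on 1 of 4 control arrays, had a fitted difference of 2.16 ± 0.36 (adjusted p = 0.0319) whose size rests on dim control signals. Sox7 was not well above background on any control array. Its fitted difference was 2.64 ± 0.26 (adjusted p = 0.0126), and as a bound it was at least 1.47-fold higher in NFIA cells. Such a bound sets the mean of NFIA cells against the control arrays, each raised to the lowest signal that was well above background on that array. The adjusted p belongs to the fit, here and for the bounds below, and the fitted size rests on dim signals. Genes given with a bound passed the filter on dim signal only through arrays where they were higher, so their calls are a description.

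The other 16 KLF and SP genes were measured with 19 probes, and 11 of them were tested. Klf1, Klf14, Klf17, Sp6 and Sp7 were not well above background on both arrays of any group. No tested gene of these passed between NFIA and control cells over both passages, and of Klf8, Klf11, Klf12 and Klf16 only Klf12 had a positive difference. Of 7 tested SP genes 1 had a positive difference, beside 44.6% of all genes, and the median was -0.39. Sp5, which responds to Wnt signalling, had -1.49 and -1.91 in SN_NFIA and 1.63 and 0.15 in SN_control, against 1.44 and 1.49 in PN_NFIA and 1.61 and 2.13 in PN_control. The SN_NFIA arrays were well below all others, and Sp5 fell between passages in NFIA cells by 3.16 ± 0.48 (adjusted p = 0.0351). In NFIA against control cells it differed by -1.50 ± 0.51 over both passages (adjusted p = 0.189), and Sp4 and Sp1 by -0.63 ± 0.23 and -0.39 ± 0.16 (adjusted p = 0.215 and 0.264).

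**Figure D5:**
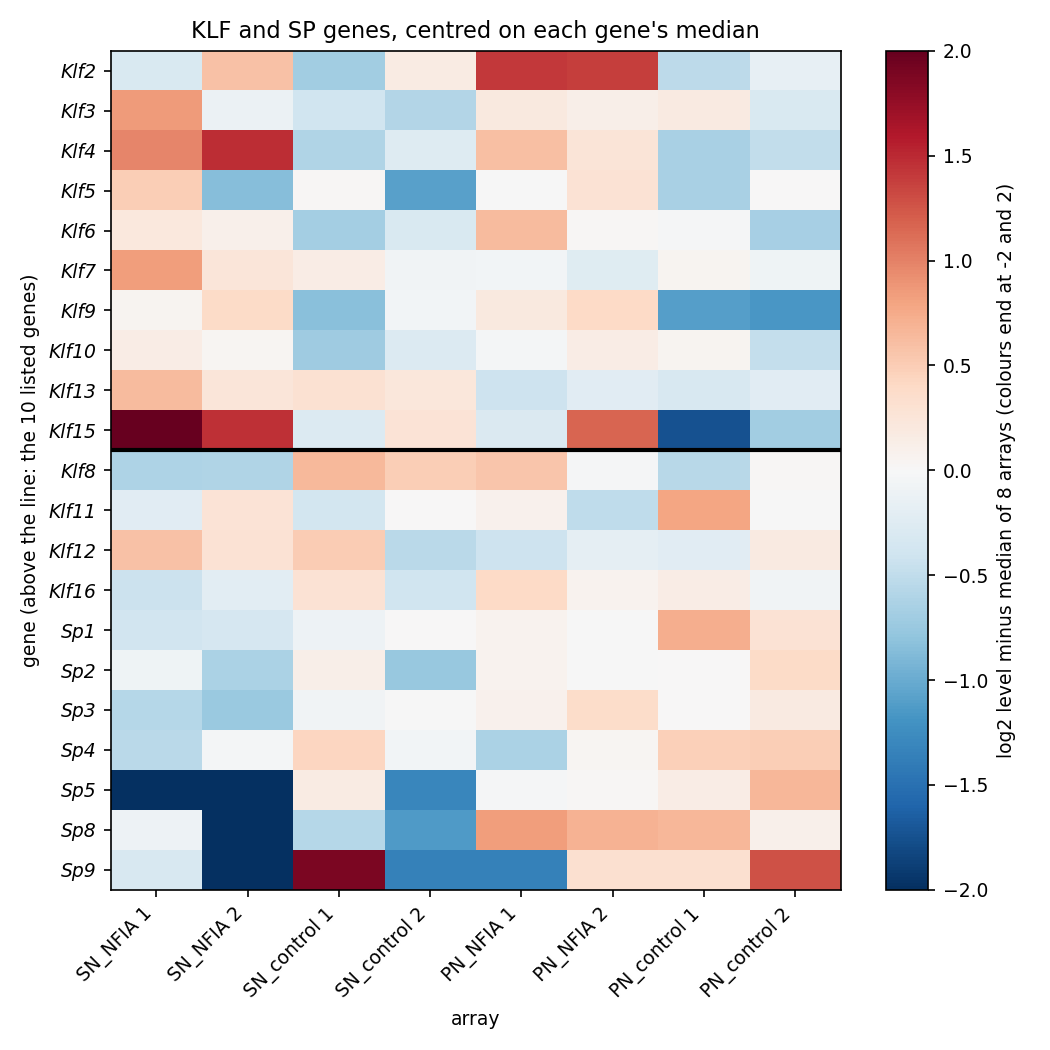
Level of the tested KLF and SP genes (rows, the 10 listed genes above the line) on each array (columns), in log2 units after subtracting the median of each gene over the 8 arrays, with colours ending at -2 and 2. Klf4 and Klf15 are higher in SN_NFIA than in SN_control, and Sp5 is lowest in the 2 SN_NFIA arrays.

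Genes that act on KLF genes or with KLF proteins were read from lists drawn up for this family. Changes between passages over both cell types, in these lists and in the markers below, come from the fit without the replicate block. With the replicate number as a random block 0 genes passed that comparison, so each such call rests on counting paired arrays as separate. Of 8 genes of the glucocorticoid list 1 rose in NFIA cells over both passages and 0 fell, beside 1.75% and 0.189% of all genes. This was Nr3c1, the glucocorticoid receptor itself, with 3.56 and 3.40 in SN_NFIA and 1.51 and 2.40 in SN_control, and 1.61 and 2.15 in PN_NFIA against 0.56 and 0.60 in PN_control. Its difference was 1.42 ± 0.24 (adjusted p = 0.0312). It was also higher in secondary neurospheres, by 1.49 ± 0.24 (adjusted p = 0.0207). Fkbp5, a target of the receptor, differed by -0.41 ± 0.18 between cell types (adjusted p = 0.305), and the list had a median of -0.05, as did all genes.

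Of 6 genes of the thyroid hormone list 1 rose over both passages, beside 1.75% of all genes. This was the receptor gene Thrb. Its probe was above background on all 4 NFIA arrays and on no control array. The fitted difference was 2.67 ± 0.31 (adjusted p = 0.0137), and as a bound Thrb was at least 2.28-fold higher in NFIA cells. In secondary neurospheres the fitted difference was 3.07 ± 0.42 (adjusted p = 0.0356), and the bound was at least 2.46-fold. The list had a median of 0.79.

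Of 11 tested genes of the TGF-beta list 2 rose over both passages, beside 1.75% of all genes. These were the ligand genes Tgfb2 and Tgfb3. Tgfb2 had 3.47 and 2.44 in SN_NFIA and 1.48 and 1.88 in SN_control, and 1.98 and 2.42 in PN_NFIA against 0.55 and 0.34 in PN_control (difference 1.51 ± 0.27, adjusted p = 0.0387). Tgfb3 differed by 1.34 ± 0.23 (adjusted p = 0.0332). Between passages the receptor gene Tgfbr2 rose (1.98 ± 0.31, adjusted p = 0.0203) and Tgfbr1 fell by 0.96 ± 0.21 (adjusted p = 0.039). The list had a median of 0.04 in NFIA against control cells.

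For the other lists, the test over both passages called no gene between NFIA and control cells among 6 tested LIF and STAT3 genes, 6 ERK5 and MEF2 genes, 5 ubiquitin ligases, 12 corepressors and coactivators and 13 reported KLF targets. Their medians were 0.65, 0.02, -0.14, -0.20 and -0.02, and 4, 0, 0, 1 and 4 of their genes had an unadjusted p under 0.05, as did 17.7% of all genes. Lifr, a receptor for LIF, had the smallest p of the first list (1.33 ± 0.35, adjusted p = 0.114). Among the reported targets, the cell cycle genes Ccnd1, Cdkn1c and Cdkn1a differed by -0.91 ± 0.21, -1.18 ± 0.33 and -0.64 ± 0.20 (adjusted p = 0.0812, 0.125 and 0.163). All 3 fell between passages, beside 3.75% of all genes. Cdkn1a fell by 1.29 ± 0.20, Ccnd1 by 1.22 ± 0.21 and Cdkn1c by 1.47 ± 0.33 (adjusted p = 0.0203, 0.0241 and 0.0397). Il6st, the shared receptor of the LIF family, rose between passages (1.04 ± 0.17, adjusted p = 0.0221), and Sap30, a part of the Sin3A complex, fell by 0.71 ± 0.16 (adjusted p = 0.0396).

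Markers of cell state and of other cell types are given next, some called higher in NFIA cells like Klf4, others lower or without a call. Their part in the differences of the members was not tested. In bulk RNA, more cells of a type and more RNA per cell cannot be told apart. Klf2, Klf4, Klf6 and Klf10 are themselves quickly induced genes in many cells. The 12 immediate early genes, of which Dusp1 is also on the glucocorticoid list, had a mean level of 0.55 and 1.75 in SN_NFIA and -0.83 and 0.43 in SN_control, and of 0.69 and -0.22 in PN_NFIA and -0.20 and -1.40 in PN_control. All 11 that were tested had a positive difference over both passages, beside 44.6% of all genes, with a median of 1.37. By limma 0 passed, while 7 had an unadjusted p under 0.05, beside 17.7% of all genes. Jun differed by 0.62 ± 0.21 (adjusted p = 0.197), and Egr3 was above background on no array.

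The 8 astrocyte markers had a mean level of 2.39 and 4.16 in SN_NFIA and -0.03 and 2.57 in SN_control, and of 0.17 and 1.21 in PN_NFIA and -1.32 and -0.99 in PN_control. Of these 7 of 8 had a positive difference over both passages, with a median of 1.79, and 5 an unadjusted p under 0.05 (17.7% of all genes). Sparcl1 rose (3.08 ± 0.51, adjusted p = 0.0302) and Aldoc came next without passing (2.85 ± 0.57, adjusted p = 0.0518). Between passages 4 rose, Sparcl1, Aldh1l1, Slc1a3 and Gfap, beside 3.34% of all genes. Gfap was above background on the 2 SN_NFIA arrays alone and passed the filter on dim signal only through them. Its call is therefore a description, and its fitted size (2.92 ± 0.71, adjusted p = 0.0493) rests on dim signals. The 4 NFI genes, Nfia included, all had a positive difference between NFIA and control cells. By limma 0 passed while 4 had an unadjusted p under 0.05, beside 17.7% of all genes. All 4 rose between passages, beside 3.34% of all genes, Nfix by the most (4.36 ± 0.48, adjusted p = 0.0111). Mesenchyme and mural markers, where Klf4 is also expressed, had a mean level of 0.60 to 1.24 on the NFIA arrays and -1.34 to 1.55 on the control arrays. Over both passages 2 of 7 were called higher in NFIA cells, beside 1.75% of all genes. They were Prrx1 (1.88 ± 0.24, adjusted p = 0.0145) and Acta2 (1.68 ± 0.31, adjusted p = 0.0414, above background on 3 of 4 control arrays). These 2 were positive in both passages. Col1a1, Col1a2, Col3a1, Pdgfrb and Tagln were positive in primary but negative in secondary neurospheres. Col1a1 differed by 2.64 ± 0.51 in primary and -0.83 ± 0.51 in secondary neurospheres, and Col1a2 by 1.78 ± 0.68 and -1.58 ± 0.68. None of the 7 passed in either passage alone. Between passages Col1a1 and Col3a1 rose (3.73 ± 0.71 and 2.78 ± 0.62, adjusted p = 0.0281 and 0.0397). Their steps were 5.46 ± 0.51 and 4.07 ± 0.61 in control cells (adjusted p = 0.0113 and 0.0417). In NFIA cells they were 1.99 ± 0.51 and 1.49 ± 0.61 (adjusted p = 0.096 and 0.224). Pdgfrb rose in control cells (3.12 ± 0.35, adjusted p = 0.0165) but not past the test in NFIA cells (0.41 ± 0.35). Tagln fell in NFIA cells (-1.74 ± 0.24, adjusted p = 0.027).

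The 6 endothelial markers had a mean level of -3.78 to -3.06 in NFIA cells and -4.34 to -3.50 in control cells. Kdr stood far above this mean, at 3.95 in NFIA and 3.73 in control cells, and was above background on all 8 arrays. Tek and Tie1 were above background on no array, and 1 of 3 tested, Emcn, was called higher in NFIA cells, beside 1.75% of all genes. Emcn was above background on no control array. Its fitted difference was 2.39 ± 0.39 (adjusted p = 0.0284), and its bound at least 1.48-fold. The 8 pluripotent cell markers had a mean level of -1.51 to 1.27 in NFIA cells and -0.01 to 0.62 in control cells, and 0 of 8 passed the limma test over both passages, with 0 at an unadjusted p under 0.05. This average covers opposite signs. In secondary neurospheres 6 of 8 had a negative difference, with a median of -1.54 and 6 at an unadjusted p under 0.05 (15% of all genes), while in primary neurospheres all 8 were positive, with a median of 0.70 and 1 at an unadjusted p under 0.05 (9.56% of all genes). Pou5f1 differed by -2.45 ± 0.54 in secondary and by 0.83 ± 0.54 in primary neurospheres, and none of the 8 passed in either. Between passages in NFIA cells 4 fell, beside 1.35% of all genes. Esrrb fell by 2.52 ± 0.32, Utf1 by 1.99 ± 0.28, Dppa5a by 3.56 ± 0.56 and Zfp42 by 3.14 ± 0.56 (adjusted p = 0.023, 0.0293, 0.0366 and 0.0484). Over both cell types Esrrb fell by 1.72 ± 0.36 (adjusted p = 0.0339). Endoderm and yolk sac markers had their highest mean level on PN_NFIA 1 (-1.64), against -4.03 to -3.18 on the other NFIA arrays and -4.41 to -3.73 on the control arrays, with Apoa1 above background on none. Of 4 tested, 1 rose over both passages (1.75% of all genes), Sox7, given above beside Klf4. The others tested had opposite signs by passage, and none passed in either. Sox17, above background on no SN_NFIA array, differed by -2.87 ± 0.95 in secondary and 1.54 ± 0.95 in primary neurospheres. Ttr differed by -0.30 ± 0.46 and 2.79 ± 0.46, and Foxa2 by -0.29 ± 0.34 and 0.35 ± 0.34. Foxa2 was above background on all 8 arrays, with a mean level of 3.45 in NFIA and 3.42 in control cells. Epithelial markers were lowest in SN_NFIA, with a mean level of -4.03 and -3.62, against -1.28 and -0.38 in SN_control, 0.91 and -0.74 in PN_NFIA and -0.73 and -1.34 in PN_control, and 0 of 5 passed by limma over both passages, with 0 at an unadjusted p under 0.05. Here too the passages had opposite signs, with all 5 negative in secondary and all 5 positive in primary neurospheres (medians -3.60 and 1.097). In secondary neurospheres 2 fell, beside 0.428% of all genes. Cdh1 fell by 2.21 ± 0.33 (adjusted p = 0.0422). Cldn6 was above background on no SN_NFIA array, with a fitted difference of -3.80 ± 0.48 (adjusted p = 0.0291). As a bound it was at least 3.46-fold higher in SN_control. Between passages in NFIA cells 3 fell, Cldn6, Cdh1 and Krt18 (adjusted p = 0.0202, 0.0202 and 0.0483), beside 1.35% of all genes. Neuron markers had a mean level of 2.98 to 3.61 in NFIA cells and 3.09 to 3.95 in control cells. Over both passages 0 of 6 passed by limma, with 2 at an unadjusted p under 0.05, beside 17.7% of all genes. These were Stmn2 (-1.29 ± 0.37) and Tubb3 (-1.23 ± 0.48), both lower in NFIA cells, while Rbfox3 (0.81 ± 0.35) and Snap25 (0.23 ± 0.31) were positive. In secondary neurospheres Stmn2, Tubb3 and Rbfox3 differed by -1.83 ± 0.48, -1.92 ± 0.62 and 1.37 ± 0.44, none past the test. Stmn2 fell between passages by 1.69 ± 0.37 (adjusted p = 0.0395). Of the 8 neural progenitor markers 0 passed between cell types over both passages by limma, with 0 at an unadjusted p under 0.05. Some had opposite signs by passage, and none passed in either passage alone. Hes5 differed by 1.18 ± 0.37 in secondary and -0.55 ± 0.37 in primary neurospheres, Fabp7 by 1.21 ± 0.50 and -0.31 ± 0.50. Pax6 differed by 0.13 ± 0.32 and -1.05 ± 0.32, and Sox2 also changed sign. Nes, Sox1 and Msi1 were negative in both passages and Vim positive in both. Pax6 fell between passages by 2.14 ± 0.30 (adjusted p = 0.0163).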

How the data were processed

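RNA of 8 sorted cell samples was hybridised to 1-colour Agilent arrays. Spot intensity (background-subtracted gProcessedSignal, with flags for spots above background or outlying) was extracted by the authors with Agilent Feature Extraction, version 10.7.3.1 per the submitters' processing notes and 10.5.1.1 per the file headers. The authors' deposited value table holds log2 values centred on the median of each probe, with a largest absolute probe median of 0.000245, and its further steps are not given in the sources used here. It served to assign arrays to samples and as an alternative.

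Levels were computed as log2 of the signal minus that of the 75th percentile of each array (a signal of 300.8 to 618.0) over spots that were neither controls nor outliers. Spots of a probe were averaged. Between 45.4% and 56.4% of 59305 spots were well above background and 0 were saturated, and the number of arrays limits the precision. A probe was kept where 1 group or more had it well above background on each of its arrays, and the brightest kept probe stood for a gene, named through its accession in RefSeq (26056 of 55681 probes had a symbol). Outlier flags left out 126 probes. The fits were made with limma 3.58.1 (lmFit and eBayes, R 4.3.3) and Benjamini-Hochberg adjustment over 13789 genes at 0.05. Comparisons over both passages or cell types used passage and cell type as terms, and all others the 4 group means, each over all 8 arrays. The procedure was tested on simulated data with independent noise on each array, for the comparisons of NFIA with control cells alone. Those data held no pairing of replicates and no passage difference, so they cannot show how the fits behave with either.

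Replicate numbers come from the titles. Across 13789 genes the replicate 1 minus 2 difference of NFIA cells correlated with that of control cells at 0.48 in secondary and 0.45 in primary neurospheres, so the numbers were taken to pair the arrays, and a fit with the number as a block was an alternative. Other alternatives were the arrays as attached to the samples, groups from the source names, normexp background (offset 50), quantile normalization, no filter on dim probes, the value table, the mean of all probes, the groups of a comparison alone and each array left out. Leaving out both NFIA arrays with a WT source name was added after seeing the data. Members and lists were chosen with earlier results of these data known. The text names every member, genes of each list that passed a test or had the smallest p-values, and the 3 genes most correlated with each member past the test. Some genes of the lists are not reported here.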

Additional observations from a re-analysis of the deposited data

Results flagged for a closer look

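Klf8, a CtBP-recruiting member of the family outside the 10 listed genes, moved in opposite directions between passages in the 2 cell types. Its level was -1.72 and -1.70 in SN_NFIA and -0.46 and -0.61 in SN_control, against -0.56 and -1.14 in PN_NFIA and -1.66 and -1.08 in PN_control. Both NFIA arrays were lower and both control arrays higher in secondary than in primary neurospheres, by -0.86 ± 0.31 in NFIA cells and 0.83 ± 0.31 in control cells. The difference between these changes was -1.70 ± 0.44 in limma, with an unadjusted p = 0.00603 and an adjusted p = 0.40 over all genes, so it did not pass the test.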

How the results depend on the processing

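Over both passages, 1 member (Klf4) passed between NFIA and control cells. The number was 0 with arrays as attached to the samples, 0 with groups from the source names, 0 without the filter on dim probes (Klf4 adjusted p = 0.057) and 0 without both NFIA arrays of WT source name. It was 2 with the replicate block and 2 with normexp background (Klf4 and Klf15 each), and between 0 and 2 with 1 array left out. In secondary neurospheres 0 passed, against 1 (Klf4) with the replicate block, 1 with normexp background, and between 0 and 1 with 1 array left out. Between passages over both cell types 0 passed, and 1 (Klf13) after quantile normalization. The block changed no other call on a member. Klf4 over both passages turned to -0.33 with arrays as attached and to -1.16 with groups from the source names. Of 70 differences of members, 35 changed sign under each of these 2 settings, this call on Klf4 among them. Sign also changed for 7 without both WT-named arrays, 2 under quantile normalization, 1 under normexp and 43 times with 1 array left out, where neither fit passed. The cause was not tested.

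Counts over all genes moved by more than 1.5 times as well. In secondary neurospheres 66 genes rose and 59 fell, against 377 and 266 with the block, 154 and 52 with normexp, 12 and 11 without the filter and 0 and 0 with these groups alone. In primary neurospheres 43 rose and 0 fell, against 70 and 0 with the block, 7 and 0 with normexp, 19 and 0 after quantile normalization, 0 and 0 without the filter and 135 and 1 with these groups alone. Over both passages 241 rose and 26 fell, against 306 and 46 with the block, 207 and 17 after quantile normalization, 140 and 3 without the filter and 62 and 5 without both WT-named arrays. Between passages over both cell types 461 rose and 517 fell, against 0 and 0 with the block as a random effect, 214 and 237 without the filter and 0 and 0 without both WT-named arrays. In NFIA cells 75 and 186 became 128 and 144 with normexp, 19 and 52 without the filter and 9 and 25 with these groups alone, and in control cells 96 and 15 became 48 and 4 without the filter. With arrays as attached, 0 genes passed in any comparison. With 1 array left out, the genes higher and lower numbered 33 to 332 and 0 to 24 over both passages, 3 to 276 and 3 to 166 in secondary and 0 to 85 and 0 in primary neurospheres. Between passages they numbered 26 to 827 and 25 to 823 over both cell types, 0 to 285 and 0 to 424 in NFIA cells and 8 to 353 and 0 to 81 in control cells. Normexp used the median signal and median background of a spot.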
